A study of Mus musculus with 2 samples.

Results

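Conventional CD4 T cells were examined among CD31+ cells of the mouse mesentery, where they had been captured together with the endothelial cells that the experiment was made to study. The rule for a CD4 T cell was set on raw unique molecular identifiers (UMIs, tags that mark single RNA molecules) of each cell barcode. A barcode needed at least 2000 UMIs in all, at most 10% mitochondrial UMIs, at least 2 UMIs of Cd3d, Cd3e and Cd3g together and at least 1 UMI of Cd4. It could hold no UMI of Cdh5, Cd8a, Cd8b1, Foxp3 or Trdc, at most 1 of Cd79a and at most 2 of Mki67 and Top2a together. In all, 1376 of 11273 barcodes met the rule. They made up 1027 of 6814 barcodes in the control library (15.1%, 95% interval 14.2 to 15.9) and 349 of 4459 in the Flcn iΔEC library (7.83%, 7.06 to 8.65).

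Both libraries came from C57BL/6 pups at postnatal day 8 that had received 40 μg of 4-hydroxytamoxifen under the skin on days P2 and P3.5 and again on P5 and P6.5, and each pooled the cells of 3 mice. Flcn iΔEC mice carry floxed Flcn, which encodes folliculin, and a Cdh5-BAC-CreERT2 transgene that drives recombination in endothelial cells, so T cells are not the intended target of the deletion. The genotype behind the control label is not given beyond that word in the sources used here. With 1 library per genotype no comparison has a replicate, no test was run, and every interval (exact, at 95%) covers counting error only.

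CD4 T cells recognise peptides on MHC class II molecules through a T cell receptor made of an alpha and a beta chain and assembled with the CD3 proteins, while CD4 itself binds class II and brings the kinase Lck to the receptor. Naive CD4 T cells circulate between blood, lymph nodes and lymph, guided by receptors such as Ccr7 and S1pr1, and mature into helper types or regulatory T cells. The mesentery of a mouse pup carries blood and lymphatic vessels and lymph nodes, and CD31, encoded by Pecam1, is present on T cells as well as on endothelium. Pecam1 had 127 CPM (the summed UMIs of a gene in a cell group, scaled to the same total in every group) in CD4 T cells of control and 111 CPM in those of Flcn iΔEC, against 1039 and 726 CPM in endothelial cells, here barcodes with at least 2 Cdh5 UMIs and none of CD3 or Cd79a.

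Several facts of the libraries bear on the values that follow. The CD4 T cells held 8149367 UMIs in control and 2890122 in Flcn iΔEC, with medians of 7587 and 7717 UMIs and of 2059 and 2056 genes per cell. No barcode of a CD4 T cell occurred in both libraries, although 6 barcodes of the whole series did. Xist, which is transcribed from the inactive X chromosome, had a UMI in 1 control and 311 Flcn iΔEC cells, whereas Y-linked genes had one in 775 and 2 cells, so sex and genotype cannot be told apart. Flcn itself had 101 UMIs in CD4 T cells of control (12.4 CPM, 10.1 to 15.1) and 27 UMIs in those of Flcn iΔEC (9.34 CPM, 6.16 to 13.6), and stood at 9.27 and 9.26 CPM in endothelial cells. The kit counts the 3′ end of transcripts and the position of the floxed exons was not used here, so these levels check no label. A further 13 control and 6 Flcn iΔEC members held 10 or more UMIs of the marker list of another cell type, and their part in each result is given beside it.

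The share of CD4 T cells depends on what it is set against. Of barcodes past the UMI and mitochondrial limits they made up 16.4% in control and 8.76% in Flcn iΔEC, and of all barcodes that met the T cell part of the rule they made up 42.3% (40.3 to 44.3) and 33.0% (30.1 to 35.9). Endothelial cells took 5.31% of control and 13.9% of Flcn iΔEC barcodes after the selection on CD31, and B cells (at least 2 Cd79a UMIs, no CD3) took 32.1% and 30.3%. CD4 T cells as counted by the rule therefore stood lower in the Flcn iΔEC library on each denominator, in 1 library per genotype. CD8 T cells (at least 1 UMI of Cd8a or Cd8b1, none of Cd4 or Foxp3) stood the other way. They made up 21.4% of T cells in control (19.8 to 23.1) and 29.4% in Flcn iΔEC (26.6 to 32.2). T cells with both Cd4 and Cd8 UMIs made up 6.30% and 4.06%. T cells with no UMI of Cd4, Cd8a, Cd8b1 or Foxp3 also stood higher in Flcn iΔEC, at 26.4% of T cells in control and 30.6% in Flcn iΔEC. A CD4 T cell without a counted Cd4 UMI falls among them, so the shares also depend on the detection of Cd4. The part of detection in the difference was not tested.

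Cd4 was a thinly counted transcript in these cells. Of the members, 533 in control (51.9%) and 220 in Flcn iΔEC (63.0%) held exactly 1 Cd4 UMI and so met the limit with nothing to spare, 323 and 93 held 2, and the highest counts were 7 and 5. Just outside the rule lay 640 control and 324 Flcn iΔEC T cells with no UMI of Cd4, Cd8a, Cd8b1 or Foxp3. The level of Cd40lg, the ligand with which helper T cells engage CD40 on B cells, was 44.3 and 62.1 CPM in those cells, beside 52.9 and 53.6 CPM in the members and 10.1 and 6.81 CPM in CD8 T cells. Cd28, the receptor for CD80 and CD86, stood at 549 and 476 CPM in them and 552 and 492 CPM in the members. In both genes the T cells without a Cd4 UMI lay nearer to the members than to CD8 T cells.

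**Figure D1:**
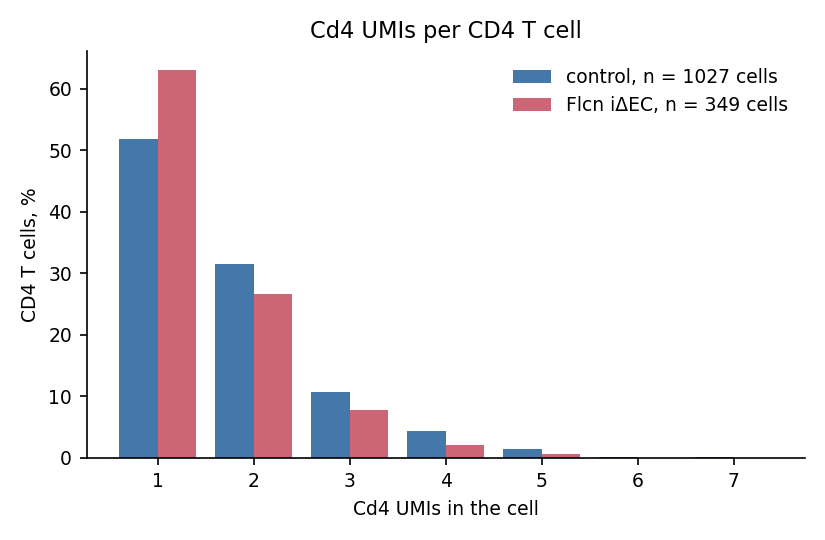
Number of Cd4 UMIs per CD4 T cell (horizontal axis) against the percentage of CD4 T cells of each library (vertical axis, bars from 0). The bars at 1 UMI reach 51.9% in control (blue, 1027 cells) and 63.0% in Flcn iΔEC (red, 349 cells), and few cells of either library lie beyond 3 UMIs.

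Cells at the limit of 1 Cd4 UMI held the marker genes at levels like those of cells with more, apart from Dapl1 in Flcn iΔEC. In control, members with 1 Cd4 UMI had 390 CPM of Lef1 and 245 CPM of Dapl1, and members with 2 or more had 363 and 218 CPM. In Flcn iΔEC the same genes stood at 389 and 308 CPM with 1 Cd4 UMI and at 377 and 188 CPM with 2 or more. Median depth was 7280 and 7962.5 UMIs in the control groups and 7477 and 8252 in the Flcn iΔEC groups, so the groups with less Dapl1 were the deeper ones. The other limits left out fewer cells that met all the rest. Those on Cd8a and Cd8b1 did so for 150 control and 42 Flcn iΔEC barcodes, the limit on CD3 for 148 and 133, that on Cd79a for 51 and 14, that on Foxp3 for 47 and 17, that on Cdh5 for 32 and 21 that on Trdc for 21 and 2 and that on Mki67 and Top2a for 20 and 17.

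The label was checked on markers that the rule did not use. Lef1 (ENSMUSG00000027985, chromosome 3, 131110471 to 131224356 on GRCm38) encodes a transcription factor of T cell development and quiescent T cells, and Cd28 (ENSMUSG00000026012, chromosome 1, 60716800 to 60773359) the main costimulatory receptor. Dapl1 (ENSMUSG00000026989, chromosome 2, 59484653 to 59505020) is used as a marker of naive T cells, and Cd4 lies on chromosome 6, from 124864692 to 124888221 (ENSMUSG00000023274). After each cell was thinned to 2000 UMIs, Cd28 was detected in 59.6% of control CD4 T cells (56.5 to 62.6) and in 52.7% of Flcn iΔEC CD4 T cells (47.3 to 58.1). Lef1 had one in 50.05% (46.9 to 53.2) and 51.6% (46.2 to 56.9), and Dapl1 in 27.1% (24.4 to 29.9) and 28.4% (23.7 to 33.4). Without thinning the shares were 91.3% and 85.4% for Cd28, 89.9% and 88.8% for Lef1 and 43.9% and 45.6% for Dapl1.

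The same thinned shares in B cells, which should lack these transcripts and had median depths of 6294 and 8035 UMIs, were 0.503% and 0.222% for Cd28, 0.274% and 0.148% for Dapl1 and 4.66% and 2.89% for Lef1. Endothelial cells, at median depths of 14096 and 22902.5 UMIs, had 1.10% and 0.645% for Cd28, the same shares for Lef1, and 0.276% and 0.161% for Dapl1. All 3 markers were thus found in a larger share of CD4 T cells than of either background. They were not restricted to CD4 T cells among T cells. In CD8 T cells the thinned shares were 45.4% and 38.6% for Cd28, 49.6% and 55.6% for Lef1 and 19.2% and 21.2% for Dapl1. For Lef1 the share in CD4 T cells was the higher one in control and the lower one in Flcn iΔEC.

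**Figure D2:**
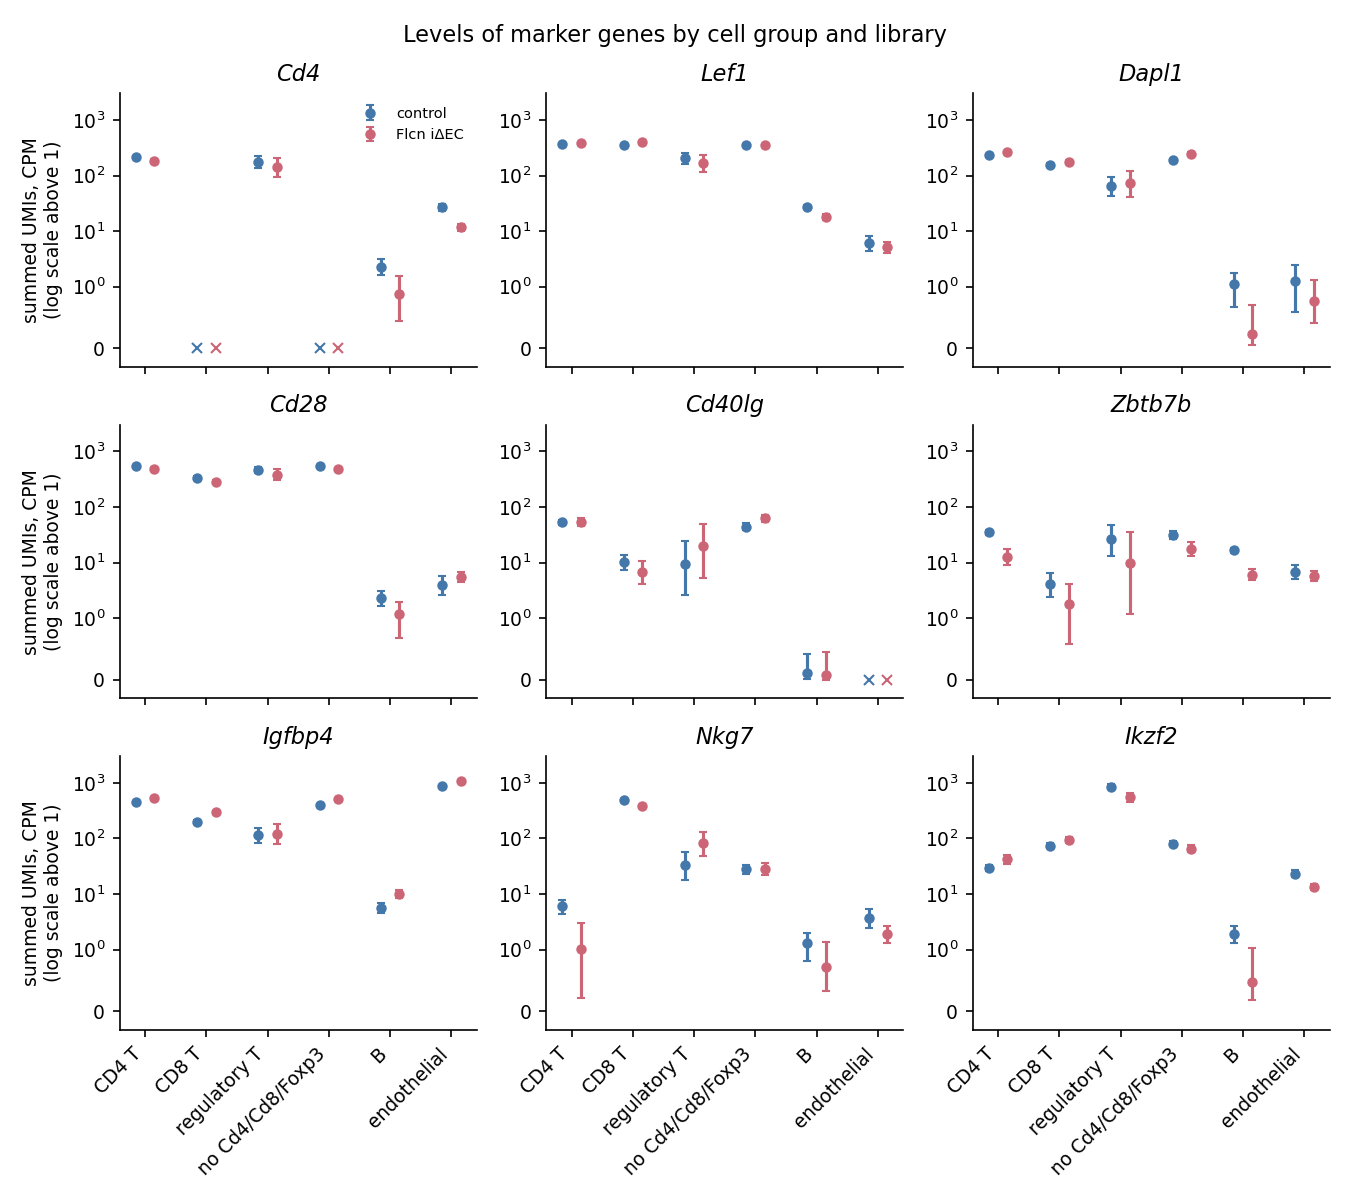
Summed UMIs scaled to one total (CPM, vertical axis, logarithmic above 1 and linear below) of 9 genes in 6 cell groups (horizontal axis) of the control (blue) and Flcn iΔEC (red) library, with exact Poisson 95% intervals and crosses for 0 UMIs. Cd4 is at 0 in CD8 T cells and in T cells without a Cd4, Cd8 or Foxp3 UMI by definition, Lef1 stands near the same level in CD4 and CD8 T cells, and Cd40lg and Igfbp4 stand lower in CD8 and regulatory T cells than in CD4 T cells.

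Each of the 1376 cells had a UMI of a T cell receptor constant gene. Median CD3 UMIs were 17 in control and 15 in Flcn iΔEC, and 2 cells of each library sat at the limit of 2. Variable genes of the beta chain (Trbv), which differ between T cell clones, had a UMI in 185 control (18.0%, 15.7 to 20.5) and 72 Flcn iΔEC cells (20.6%, 16.5 to 25.3) and in 0 B cells of either library. Of 35 Trbv genes in the files, 20 were found among control and 17 among Flcn iΔEC members, and 10 and 3 members held more than 1. Trbv12-2 was seen in 27 and 9 cells and Trbv19 in 25 and 9. Alpha chain variable genes (Trav) had a UMI in 207 (20.2%) and 62 (17.8%) cells, from 57 and 33 of 128 genes. At this depth most cells showed no variable gene, and many of these genes are near-identical copies between which reads can be lost, so the counts describe diversity and no clone sizes.

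Of the genes of naive, recirculating cells, Satb1 had a UMI in 994 control and 331 Flcn iΔEC members and Tcf7 in 938 and 314, while Dapl1 had one in 451 and 159 and Ly6c1 in 270 and 108. Ccr7, which guides cells into lymph nodes, gave 3072 UMIs in control (377 CPM) and 961 UMIs in Flcn iΔEC (332.5 CPM), and had a UMI in 821 of 1027 and 248 of 349 cells. Tcf7, a transcription factor that keeps T cells in a naive or stem-like state, stood at 482 and 402 CPM, and Satb1, a chromatin organiser of thymocytes and T cells, at 564 and 477.5 CPM. S1pr1, the receptor that lets lymphocytes leave lymph nodes, was at 157 and 168.5 CPM. Igfbp4, a binding protein of insulin-like growth factors, was at 457 and 529 CPM and was found in 764 and 279 cells.

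Genes of the activation and effector-memory list differed widely in how many members held them. Lgals1, the gene of galectin-1, had a UMI in 684 control and 190 Flcn iΔEC cells, and Ahnak, which encodes a large scaffold protein, in 297 and 81. Cd44, an adhesion molecule that is high on memory T cells, had a UMI in 81 control and 27 Flcn iΔEC cells, at 13.5 and 14.2 CPM. S100a4, a calcium-binding protein of effector and memory cells, was found in 19 and 14 cells, at 12.15 and 17.3 CPM, and 35.35% and 74% of its UMIs lay in members with markers of another cell type. Cd69, an early activation receptor that also holds cells in tissue, was in contrast present in 889 and 291 cells, at 795 and 753 CPM. The immediate early gene Fos had a UMI in 969 and 319 cells. Cd69 stood at a like level in CD8 T cells (867 and 825 CPM) and B cells (729 and 585 CPM).

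Most genes that define polarised helper cells were at or near 0. Of the lists for T helper 1 (5 genes), T helper 2 (5), T helper 17 (6) and follicular helper cells (5), the numbers of genes with at least 50 UMIs over both libraries were 1, 1, 0 and 1. Tbx21, the master regulator of T helper 1 cells, had 5 UMIs in control and 1 in Flcn iΔEC, and Ifng, its cytokine target, had 17 UMIs in 12 cells and 6 UMIs in 1 cell. Il4 and Il17a had 0 UMIs in both libraries, below the floor of 3 counts that a count of 0 allows, and Il21 had 1 and 0. Gata3, which has a role in all CD4 T cells beside the T helper 2 programme, was at 68.0 and 62.3 CPM, and Bcl6, the factor of follicular helper cells, at 14.1 and 15.9 CPM.

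Of a list of 16 genes of recent thymic emigrants and neonatal T cells, the thymocyte genes Rag1 and Dntt had 0 UMIs in both libraries and Rag2 had 1 in control. Sox4, a factor of immature lymphocytes, was at 173 and 220.1 CPM. The fetal RNA-binding protein gene Igf2bp3 had a UMI in 377 and 128 cells, at 61.4 and 63.0 CPM, while Lin28b, which controls fetal lymphopoiesis, had 1 and 0 UMIs. Igf2bp3 did not mark CD4 T cells, as it stood at 43.3 and 58.8 CPM in CD8 T cells and 59.5 and 59.1 CPM in B cells.

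Markers of other cells were low in most members and high in a few. The erythroid list (5 genes) summed to 29028 UMIs in control, 98.5% of them in 2 cells, and to 312 UMIs in Flcn iΔEC, with at most 5 in a cell. The neutrophil list (3 genes) summed to 1901 UMIs in control, 99.3% of them in 2 cells, and to 1 UMI in Flcn iΔEC. Genes of macrophages and dendritic cells summed to 83.2 and 91.0 CPM, with 37.8% and 49.0% of the UMIs in 8 and 5 cells, and of their 6 genes Csf1r was at 0 in both libraries and Adgre1 at 0 in control. The list of group 3 innate lymphoid and lymphoid tissue inducer cells summed to 55.5 and 71.6 CPM, with 55.5% and 73.4% of the UMIs in 7 and 6 cells.

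No member reached 10 UMIs of the B cell list, which stood at 199 and 143 CPM with Cd79a held to at most 1 UMI by the rule. None reached 10 UMIs of the endothelial list either, which stood at 13.0 and 24.2 CPM with Cdh5 at 0 by the rule. The same held for NK and gamma-delta T cells (3.56 and 4.15 CPM, Trdc at 0 by the rule), natural killer T cells (7.24 and 6.57 CPM) and cycling cells (22.5 and 31.1 CPM, limited by the rule). Of the fibroblast list 42 of 59 UMIs in Flcn iΔEC lay in 1 cell, beside 51 UMIs in control with at most 5 in a cell, and of the platelet list 18 of 25 UMIs in control lay in 1 cell, beside 1 UMI in Flcn iΔEC. Low counts of the B cell list were spread over many members, since Ighm, the heavy chain of IgM, had a UMI in 629 control and 197 Flcn iΔEC members. Cells with 10 or more UMIs of another list made up the 13 control and 6 Flcn iΔEC members named above, of which a doublet search by Scrublet had marked 3 and 1. That search marked 142 control and 37 Flcn iΔEC barcodes in the whole files.

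CD4 T cells were next set against CD8 T cells of the same library, chosen by the same limits with at least 1 UMI of Cd8a or Cd8b1 and none of Cd4 (520 control and 311 Flcn iΔEC cells, median depths 8152.5 and 8397 UMIs). The genes compared had at least 50 UMIs over both groups in each library, and of the genes of the rule only Cd4, Cd8a, Cd8b1 and Foxp3 were left out. Of these 6913 genes, 99 (1.43%) stood past 2-fold in the same direction in both libraries, 36 (0.521%) higher and 63 (0.911%) lower in CD4 T cells. Cells of 1 library share their source, so each library gives 1 value per gene. The median log2 ratio over these genes was 0.01 in control and 0.03 in Flcn iΔEC.

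Among the genes higher in CD4 T cells was Cd40lg, with 52.9 CPM in CD4 and 10.1 CPM in CD8 T cells of control (ratio 5.24, 3.85 to 7.30) and 53.6 and 6.81 CPM in Flcn iΔEC (7.87, 4.87 to 13.4). Ly6c1, a surface protein of naive T cells and other leukocytes, stood at 65.0 and 12.1 CPM in control (ratio 5.37) and 78.5 and 15.4 CPM in Flcn iΔEC (5.09). It has a close paralog, Ly6c2, that lay in the opposite direction, at 3.07 against 100.2 CPM in control and 2.08 against 120.1 CPM in Flcn iΔEC. The division of reads between such close copies is uncertain. Gpr183, the oxysterol receptor that positions CD4 T cells in lymphoid tissue, stood at 107 and 45.5 CPM in control and 96.9 and 25.8 CPM in Flcn iΔEC.

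Of 9 measured genes of the regulatory T cell list, 4 stood past 2-fold higher in CD4 than in CD8 T cells although members hold no Foxp3 UMI, and 2, Ikzf2 and Itgae, stood lower. The 4 were Tnfrsf4 (OX40, a costimulatory receptor), Izumo1r (folate receptor 4), Nrp1 and Gpr83. Izumo1r stood at 134 against 43.5 CPM in control (ratio 3.09, 2.65 to 3.62) and 111 against 31.2 CPM in Flcn iΔEC (3.57, 2.81 to 4.58), and was found in 426 and 133 members. Tnfrsf4 was at 12.8 against 1.57 CPM and 14.9 against 3.94 CPM, in 51 and 26 members. Ctla4 and Ikzf2, both used as regulatory T cell genes, were found in 139 and 79 control and in 63 and 32 Flcn iΔEC members.

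Zbtb7b, the factor ThPOK that sets the CD4 fate against Runx3 in the thymus, had 284 UMIs in control CD4 T cells (34.85 CPM) and 37 in Flcn iΔEC (12.8 CPM), against 4.04 and 1.79 CPM in CD8 T cells. The CD4 to CD8 ratios were 8.64 (5.37 to 14.8) and 7.14 (2.80 to 23.3), but the counts in Flcn iΔEC were too few for the 6913 genes. Runx3 stood the other way, at 57.55 CPM in CD4 and 129 CPM in CD8 T cells of control and 94.1 and 157 CPM in Flcn iΔEC. Cd28 was higher in CD4 T cells by less than 2-fold, with ratios of 1.64 (1.54 to 1.74) and 1.73 (1.58 to 1.89), as was Dapl1 at 1.49 (1.37 to 1.63) and 1.47 (1.31 to 1.65). The ratios of Lef1, 1.06 (0.997 to 1.13) and 0.974 (0.895 to 1.06), lay on both sides of 1.

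The genes that stood lower in CD4 T cells included most of the measured cytotoxic list. Of 8 measured genes of the list for the CD8 lineage and cytotoxicity, other than the rule genes, 7 stood past 2-fold lower, with list medians of -3.39 in control and -2.80 in Flcn iΔEC on the log2 scale against 0.01 and 0.03 over all genes. Nkg7, a granule protein of cytotoxic cells, had 49 UMIs in control members (6.01 CPM) and 3 in Flcn iΔEC members, against 488 and 381 CPM in CD8 T cells, and its CD4 to CD8 ratios were 0.0123 (0.00909 to 0.0163) and 0.00272 (0.00056 to 0.00797). Klrd1, the NK receptor CD94, was at 4.17 against 139 CPM and 6.23 against 180.0 CPM. Itgae, the alpha E chain that binds E-cadherin on epithelium, was at 0.982 against 57.6 CPM and 2.08 against 58.4 CPM, all 6 UMIs of the latter members in 1 cell, and Ccr9, the chemokine receptor of gut homing, at 5.89 against 53.8 CPM and 2.77 against 29.0 CPM. Of 11 measured genes of the homing and adhesion list, 1 stood past 2-fold lower (Ccr9) and 1 higher (Gpr183). Of the 8 measured genes of the cytotoxic list only Runx3 did not pass 2-fold in both libraries.

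**Figure D3:**
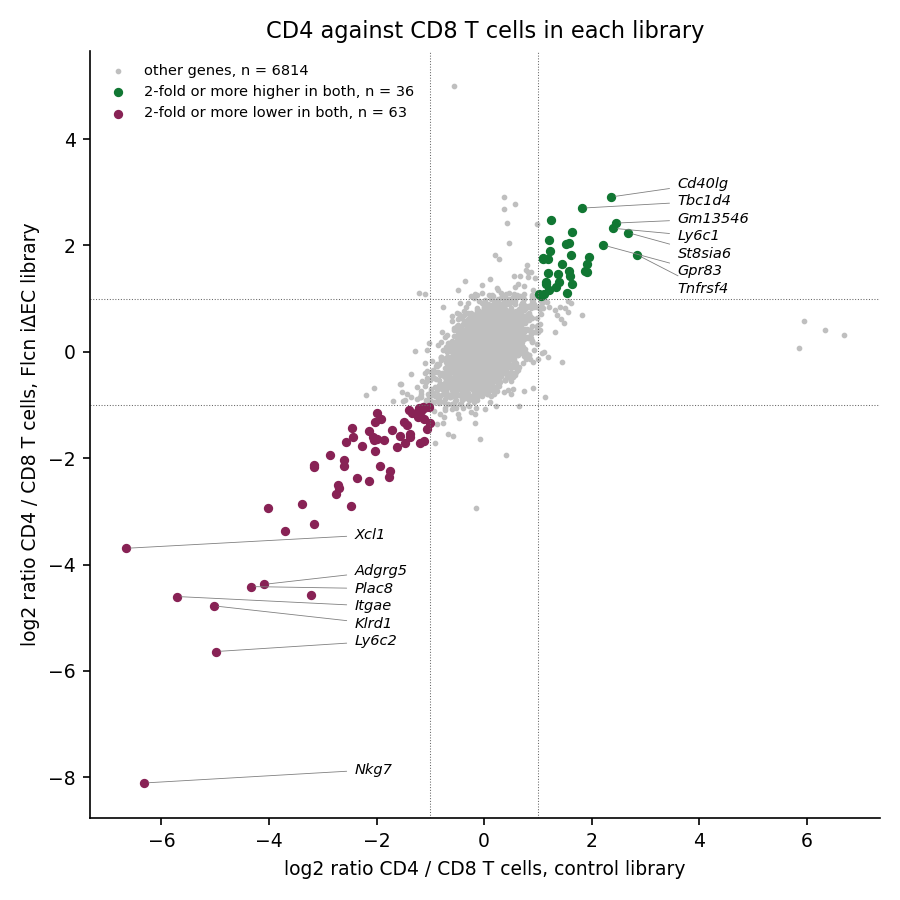
The log2 ratio of CD4 to CD8 T cells in the control library (horizontal axis) against that in the Flcn iΔEC library (vertical axis) for 6913 genes, with dotted lines at 2-fold. Green points are the 36 genes past 2-fold higher and purple points the 63 past 2-fold lower in both libraries, and Cd40lg and Nkg7 lie at opposite ends.

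Regulatory T cells, defined by the same limits with at least 1 Foxp3 UMI, gave 47 control and 17 Flcn iΔEC cells, so ratios to them rest on few counts. Of 5281 measured genes, 239 (4.53%) stood past 2-fold in the same direction in both libraries, 32 (0.606%) higher and 207 (3.92%) lower in CD4 T cells. The median log2 ratio over these genes was -0.20 in control and -0.33 in Flcn iΔEC. Without mitochondrial, ribosomal protein and hemoglobin genes in the total it was -0.04 and -0.10, and the calls became 51 higher and 122 lower. Without the cell that held the most UMIs of each gene the calls were 62 higher and 98 lower of 5028 genes. Over the 5281 genes they were 71 higher and 113 lower, with medians of -0.03 and 0.01. Leaving out 1 cell takes a larger part from 47 or 17 regulatory T cells than from the CD4 T cells, so this setting cannot show what single cells add. With 0.5 counts added the calls were 44 higher and 188 lower. With each cell thinned to 2000 UMIs the medians of the same 5281 genes, chosen before thinning, were -0.38 and -0.74. Over the 1613 genes that still had at least 50 UMIs, the median of the log2 ratio averaged over both libraries was -0.244. In the main setting that median was -0.252. With 0.5 counts added, the median of the averaged log2 ratio was -0.205 over the 5281 genes. Regulatory T cells held 420333 and 204311 UMIs in all, fewer than the CD4 T cells. The 1 count added to each sum thus weighs more in them and lowers the ratios of thinly counted genes. The size of the shift towards regulatory T cells changed with the setting, and its cause was not tested. Regulatory T cells were also the deeper group, with median depths of 8432 and 10854 UMIs. Of them 4 and 4 held 10 or more UMIs of another cell type's list.

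In the naive list, 4 of 16 genes of the naive list stood past 2-fold higher in CD4 T cells in both libraries and none lower, with list medians of 0.51 and 1.16 on the log2 scale. They were Dapl1, Satb1, Igfbp4 and Actn1, and 6 of the list passed without the top cell of each gene and 7 without mitochondrial, ribosomal protein and hemoglobin genes in the total. Igfbp4 stood at 457 CPM in CD4 against 114 CPM in regulatory T cells of control (ratio 3.998, 3.01 to 5.43) and at 529 against 122 CPM in Flcn iΔEC (4.32, 2.92 to 6.70). Dapl1 was at 232 against 64.2 CPM (3.605, 2.47 to 5.485) and 261 against 73.4 CPM (3.55, 2.14 to 6.38). Lef1 and Tcf7 leaned the same way without passing 2-fold in both libraries, with ratios of 1.84 and 2.31 for Lef1 and 1.86 and 2.28 for Tcf7. Dapl1 and Igfbp4 therefore separated CD4 from regulatory T cells by more than Lef1 did.

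Of 18 measured genes of the activation list, 11 stood past 2-fold lower in CD4 T cells in both libraries and none higher, and of 8 genes of the regulatory T cell list 7 stood lower. Without mitochondrial, ribosomal protein and hemoglobin genes in the total, and likewise without the top cell of each gene, the counts were 9 and 7. Tnfrsf4 was at 12.8 CPM in CD4 against 576 CPM in regulatory T cells of control and at 14.9 against 675 CPM in Flcn iΔEC. Ikzf2, the factor Helios of thymus-derived regulatory cells, was at 29.1 against 854 CPM and 42.2 against 558 CPM. Ctla4, an inhibitory receptor for CD80 and CD86, was at 36.8 against 431 CPM and 50.2 against 372 CPM. S100a4 and S100a6, small calcium-binding proteins of effector cells, stood at 12.15 against 171 CPM and 19.4 against 366 CPM in control, and at 17.3 against 348 CPM and 28.4 against 935 CPM in Flcn iΔEC.

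Within the CD4 T cells the thinned counts of most genes lay near counting noise. The variance of thinned counts over cells was divided by their mean, a value that is 1 for pure counting noise. It had a median of 1.03 in control and 1.02 in Flcn iΔEC over 3582 genes, each with a mean of at least 0.05 thinned UMIs per cell. At low means this value stays near 1 even where expression differs between cells, so it cannot show that the cells are alike. Of the 50 genes with the highest values, 26 were shared by both libraries. Cd74 (10.5 and 9.58) and H2-Aa (5.70 and 5.68), genes of MHC class II presentation, were among them, and 56.1% and 80.8% of the Cd74 UMIs and 62.7% and 88.1% of the H2-Aa UMIs lay in the members with markers of another cell type. Of the others, Jun (2.95 and 3.26), Fos (2.45 and 3.14) and Junb (2.75 and 2.74) are immediate early genes, and Actb (5.499 and 4.096) and Tmsb4x (3.01 and 3.31) encode actin and an actin-binding peptide.

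Trbc1 and Dapl1 were also among the variable genes. Trbc1, one of the 2 alternative constant genes of the beta chain, had values of 3.26 and 3.32 and was at 0 in 49.0% and 44.4% of thinned cells. Among members with 10 or more UMIs of both constant genes together (927 and 299), Trbc1 took under 20% of them in 480 and 123 cells, over 80% in 43 and 20 and a share between in 404 and 156. Since Trbc1 and Trbc2 are near-identical in sequence, the division of reads between them is uncertain. Dapl1 had values of 1.94 and 2.41, was at 0 in 72.9% and 71.6% of thinned cells, and had 38.3% and 38.5% of its UMIs in the top 5% of cells.

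Cells with and without Dapl1 overlapped in the effector genes S100a4 and S100a6. Of control members with a Dapl1 UMI, 20 of 451 (4.43%, 2.73 to 6.77) held a UMI of either gene, and of those without, 29 of 576 (5.03%, 3.40 to 7.15). In Flcn iΔEC the counts were 13 of 159 (8.18%, 4.42 to 13.6) and 21 of 190 (11.1%, 6.97 to 16.4). Cells with Dapl1 were the deeper group, with medians of 7902 against 7285.5 UMIs and 8016 against 7642. A difference between the Dapl1 groups was not detectable within these intervals in either library.

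The libraries were compared last, to ask how CD4 T cells of Flcn iΔEC mesentery differ from those of control mesentery. Of 8388 genes with at least 50 UMIs over both libraries, 227 (2.71%) stood past 2-fold, 117 (1.39%) higher and 110 (1.31%) lower in Flcn iΔEC, with a median log2 ratio of -0.04. Without the 13 and 6 members with markers of other cells, 194 of 8283 genes (2.34%) did, 93 (1.12%) higher and 101 (1.22%) lower. Single cells held most UMIs of several genes with large ratios. Mgp, a secreted matrix protein, stood at 6.26 and 518 CPM in control and Flcn iΔEC, where in the latter 1444 of its 1496 UMIs lay in 1 cell, and at 6.27 and 18.6 CPM without those members. Hba-a1, an alpha globin with a near-identical copy, had 2920 of its 5832 control UMIs in 1 cell, and its levels were 716 and 16.3 CPM with those members and 10.7 and 16.8 CPM without. S100a8, of neutrophils, had 645 UMIs in 6 control cells and 0 in Flcn iΔEC.

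Genes of heat shock proteins stood higher in Flcn iΔEC throughout the list. All 11 had a ratio above 1 and 6 passed 2-fold, with a median log2 ratio of 1.06 against -0.04 over all genes, and the median lay between 1.03 and 1.09 under 5 other ways of scaling or leaving out cells. Hspa1a, an inducible HSP70 chaperone, had 227 UMIs in control (27.9 CPM) and 3644 in Flcn iΔEC (1261 CPM, ratio 45.3, 39.6 to 52.0) and had a UMI in 144 of 1027 and 283 of 349 cells. Hspa1b, its near-identical neighbour, stood at 29.9 and 431.5 CPM, and the division of reads between them is uncertain. Hsp90aa1 stood at 759 and 1731 CPM (2.28, 2.20 to 2.37), Hsph1 at 40.4 and 105 CPM (2.61, 2.22 to 3.05) and Dnajb1, the co-chaperone of HSP70, at 109.5 and 229 CPM (2.09, 1.89 to 2.31).

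In CD8 T cells and B cells the heat shock genes had like ratios, and in endothelial cells smaller ones. For Hspa1a the ratio of the libraries was 27.7 in CD8 T cells and 50.7 in B cells, and for Hsp90aa1 it was 2.28 and 2.48. The whole list summed to 5927 and 10341 CPM in CD4 T cells, to 6219 and 10554 CPM in CD8 T cells to 5737 and 11034 CPM in B cells and to 5907 and 6998 CPM in endothelial cells. In endothelial cells Hspa1a stood at 49.9 and 337 CPM and Hsp90aa1 at 469 and 679 CPM. Handling of the 2 preparations and genotype cannot be told apart in 1 library each.

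Interferon-stimulated genes stood higher in part. Of 12 measured genes, 10 had a ratio above 1 and 3 passed 2-fold, Irf7, Oasl2 and Rtp4, with a median log2 ratio of 0.43, between 0.37 and 0.53 under the other scalings. Irf7, a transcription factor that amplifies the interferon response, stood at 16.6 and 33.6 CPM (2.03, 1.54 to 2.65), and Rtp4 at 9.57 and 26.3 CPM (2.75, 1.98 to 3.82). Ifi27l2a, an interferon-induced gene, stood at 297 and 455 CPM in CD4 T cells, a ratio of 1.53 (1.43 to 1.64), beside 2.20 in CD8 T cells and 2.52 in B cells. The interferon list summed to 639 and 901 CPM in CD4 T cells, 485 and 876 CPM in CD8 T cells and 243 and 495 CPM in B cells.

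**Figure D4:**
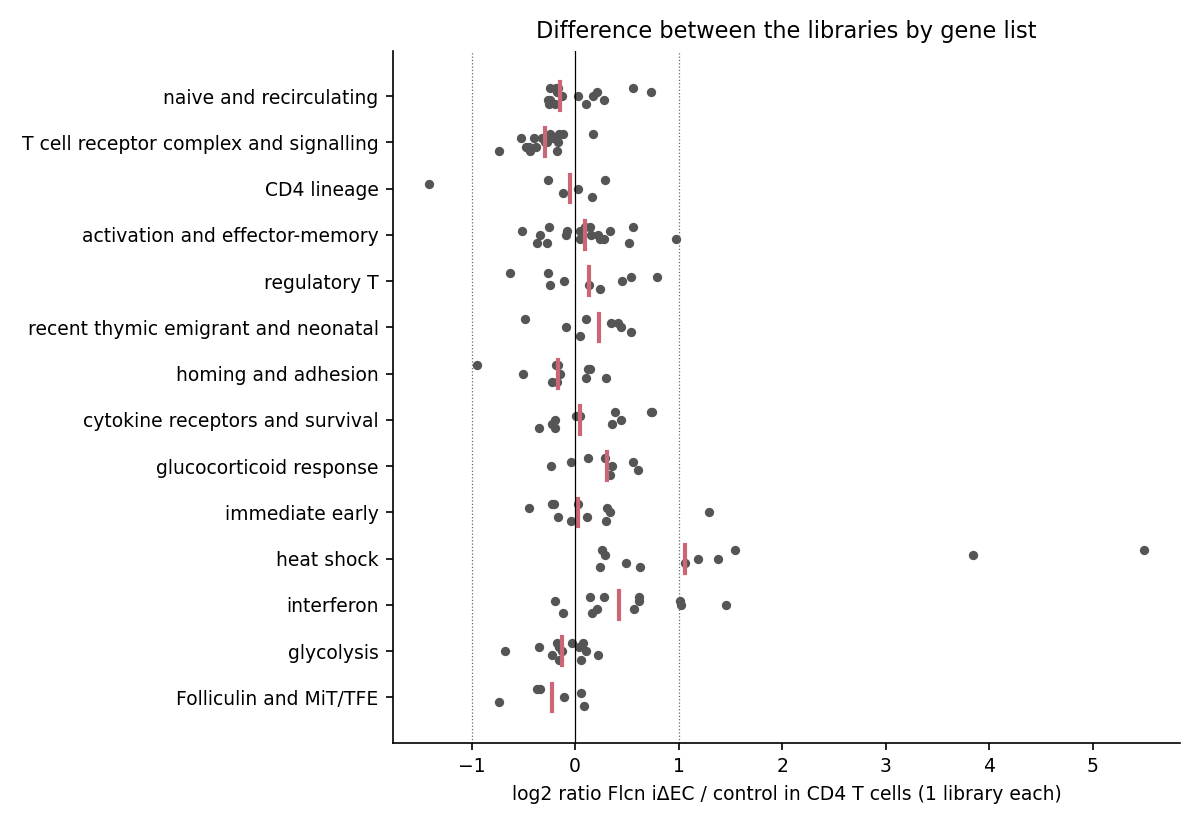
Each point is the log2 ratio of Flcn iΔEC to control (horizontal axis, 1 library each) of 1 gene with at least 50 UMIs in CD4 T cells, by gene list (vertical axis), red bars are list medians and dotted lines mark 2-fold. The heat shock list lies wholly above 0 with a median of 1.06, the interferon list has a median of 0.43, and 1 of 17 genes of the T cell receptor list lies above 0. The T cell receptor list holds the rule genes Cd3d, Cd3e and Cd3g.

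Genes of the T cell receptor complex and its signalling stood slightly lower in Flcn iΔEC, since 16 of 17 had a ratio under 1 and none passed 2-fold. The list holds Cd3d, Cd3e and Cd3g, which the rule used to choose the members, so these genes are not independent of the choice. The median log2 ratio was -0.29, and it lay between -0.30 and -0.26 under the other scalings. Trac, the alpha chain constant gene, stood at 599 and 443 CPM (0.739, 0.694 to 0.786), Cd6, a scavenger receptor that tunes receptor signals, at 140.5 and 84.1 CPM (0.598, 0.519 to 0.688) and Cd5, an inhibitory coreceptor, at 210 and 153 CPM (0.731, 0.657 to 0.812). Trbc1 was the exception, at 870 and 977 CPM. The ratios of Trac, Cd6 and Cd5 in CD8 T cells were 0.788, 0.728 and 0.738.

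Naive genes lay on both sides of 1, with 7 of 16 above and none past 2-fold. Klf2, which drives S1pr1 in resting T cells, stood at 1068 and 1571 CPM (1.47, 1.42 to 1.52), and its ratio in CD8 T cells was 1.52. Il7r, the receptor chain for the survival cytokine IL-7, stood at 136 and 226 CPM (1.66, 1.505 to 1.83), beside 0.956 in CD8 T cells and 0.608 in B cells. Bcl2, which blocks cell death, stood at 157 and 214 CPM (1.36, 1.23 to 1.499), beside 1.10 and 0.806. Without the members with markers of other cells the ratio was 1.59 for Il7r and 1.365 for Bcl2. Ifngr1, a chain of the interferon gamma receptor, stood at 52.8 and 88.2 CPM (1.67, 1.43 to 1.96).

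Zbtb7b was the single gene of the CD4 lineage list that passed 2-fold, at 34.85 and 12.8 CPM (0.367, 0.253 to 0.519). It had a UMI in 249 of 1027 and 35 of 349 members. Its library ratio was 0.573 (0.4005 to 0.805) in T cells without a Cd4, Cd8 or Foxp3 UMI and 0.368 (0.2815 to 0.475) in B cells. In CD8 T cells it was 0.444 (0.129 to 1.24), from 18 and 5 UMIs. Cd40lg and Gata3 of the same list stood near the same level in both libraries, with ratios of 1.01 (0.8385 to 1.22) and 0.916 (0.770 to 1.09). Of the list for folliculin and the MiT/TFE factors, none of 6 measured genes passed 2-fold, where 2.71% of all genes did, so a list of this size shows nothing by that count. Tfe3, a transcription factor that folliculin keeps out of the nucleus, stood at 23.1 and 21.1 CPM, and Tfeb at 9.69 and 5.54 CPM.

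**Figure D5:**
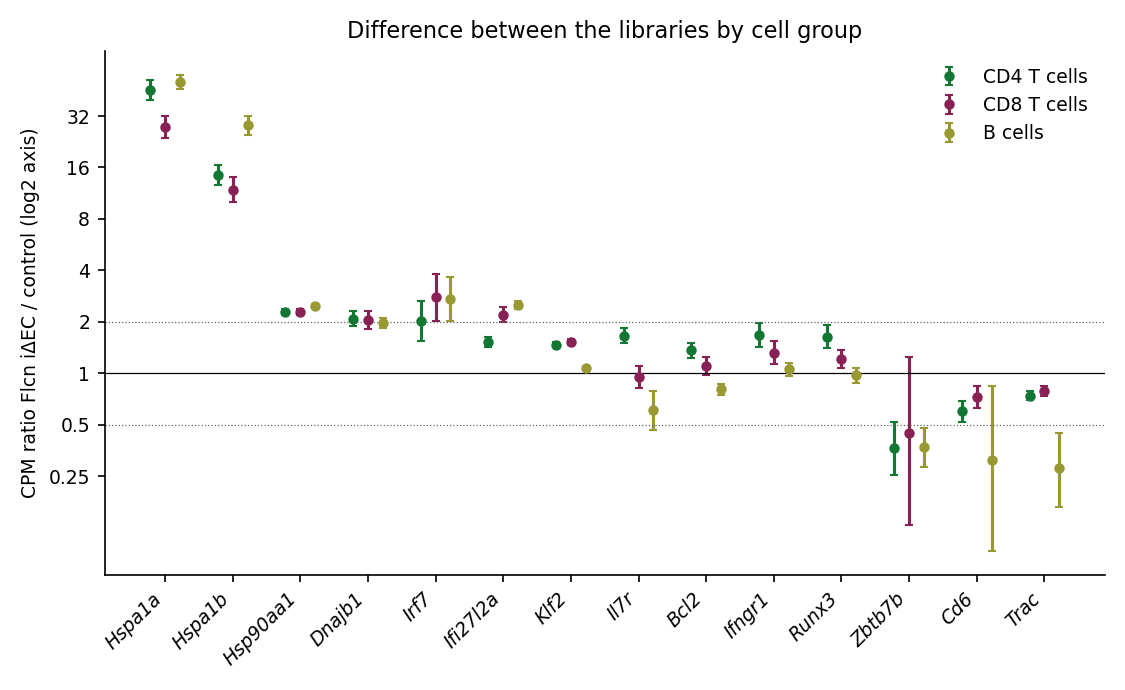
Ratio of summed CPM in Flcn iΔEC to control (vertical axis, log2 scale) for 14 genes (horizontal axis) in CD4 T cells (green), CD8 T cells (purple) and B cells (olive), with exact 95% counting intervals and dotted lines at 2-fold. The ratios of Hspa1a are 45.3, 27.7 and 50.7 and those of Hsp90aa1 2.28, 2.28 and 2.48, whereas Il7r is at 1.66 in CD4, 0.956 in CD8 T cells and 0.608 in B cells.

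The counts in the other lists are to be read against the 2.71% of all genes past 2-fold, a share at which lists of this size hold few or none. Of genes of activation (19 measured), homing (11), cytokine receptors (11), glycolysis (13), the glucocorticoid response (8), regulatory T cells (9) and the neonatal list (8), none passed 2-fold. Of the immediate early list (11 measured) only Atf3 did, at 13.6 and 33.2 CPM (2.44, 1.84 to 3.23), where the highest cell held 21 of 111 UMIs in control and 16 of 96 in Flcn iΔEC. Of the list for the CD8 lineage and cytotoxicity (7 measured) only Nkg7 did, at 49 UMIs in 20 control and 3 UMIs in 3 Flcn iΔEC cells.

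Among the other genes with the largest ratios outside the members with markers of other cells, several had like ratios in other cell groups. Gm8797, a predicted gene, stood at 16.7 and 178 CPM in CD4 T cells and at 16.4 and 149 CPM in B cells. Socs3, an inhibitor of cytokine signals, stood at 39.0 and 140.5 CPM (3.6, 3.10 to 4.18), with ratios of 2.59 in CD8 T cells and 2.52 in B cells. On the lower side, Ctrb1, a pancreatic protease, had 164 UMIs in control (20.1 CPM) and 1 in Flcn iΔEC, and stood at 14.8 CPM in control CD8 T cells and 20.01 CPM in control B cells. Glycam1, a secreted glycoprotein made by high endothelial venules, had 149 and 3 UMIs, with 18.3 CPM in control CD4 T cells, 8.52 CPM in control CD8 T cells and 12.5 CPM in control B cells. Igkc, the kappa light chain of B cells, had 242 and 30 UMIs. All 3 are known as products of other cells.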

How the data were processed

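The authors made the deposited files with Cell Ranger 3.0 and the mm10 genome, per the labels, from Chromium Single Cell 3′ v3 libraries of bead-selected CD31+ mesentery cells. Each deposited matrix holds raw UMI counts, not normalized, for 28692 genes and the cell barcodes of 1 library. For each cell group the counts of its cells were added up per gene and given as CPM, with exact Poisson intervals at 95%, exact conditional intervals for ratios and Clopper-Pearson intervals for shares. Fold calls used log2 ratios with 1 count added to each sum, genes with at least 50 summed counts over the groups compared and a threshold of 2-fold. No test was possible with 1 library per genotype, and the depth of cells was equalised by thinning each to 2000 UMIs (seed 1), which left out no cell. B cells (at least 2 Cd79a UMIs) and endothelial cells (at least 2 Cdh5 UMIs), both without CD3, gave the background. Doublets were marked with Scrublet in scanpy 1.11.5 and kept in the main values. All 4 given markers, the genes of every list and the 10 genes with the largest ratios per direction were eligible for naming. Those 10 needed at least 100 counts between the libraries, and at least 50 in each library against CD8 or regulatory T cells. The members and lists were chosen with earlier results of these data known. Intervals and scaling were tested on simulated data. Positions are from GENCODE M21 on GRCm38 and were found for 98.8% of genes. Python 3.11.15, numpy 2.4.6, scipy 1.17.1 and pandas 2.3.3 were used. Each library pooled 3 mice, so the spread between animals is unknown. Some list members are not reported here.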

Additional observations from a re-analysis of the deposited data

Results flagged for a closer look

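For 5 genes of the lists the ratio of Flcn iΔEC to control lay on one side of 1 in CD4 T cells and on the other in CD8 T cells, each library giving 1 value per cell group, and the difference between the cell groups was not tested. Their CD4 ratio has an interval that excludes 1 and does not overlap that of the CD8 ratio, at 50 or more UMIs in both cell groups. The CD4 ratio also had to differ from 1 by a set minimum fold, which was smaller than the 2-fold used for the fold calls. The genes Egr1, Fos, Il6ra and Selplg met the other conditions but did not reach this minimum fold. Their CD4 ratios were 0.856, 0.8704, 0.855 and 1.105 against CD8 ratios of 1.18, 1.06, 1.153 and 0.892. Il7r had ratios of 1.66 in CD4 (1.505 to 1.83) and 0.956 in CD8 T cells (0.824 to 1.11), and 1.22 in T cells without a Cd4, Cd8 or Foxp3 UMI. Stat4, a signal transducer of IL-12, had 1.56 (1.29 to 1.88) and 0.922 (0.755 to 1.12). Egr2, induced by receptor signals, had 0.689 (0.504 to 0.929) and 1.30 (0.944 to 1.79). The chemokine gene Ccl5 had 1.98 (1.27 to 3.06) and 0.941 (0.810 to 1.09), but 0.535 in CD4 T cells without the members that held markers of another cell type. S100a11 had 1.26 (1.05 to 1.51) and 0.645, and 1.02 in CD4 T cells without those members.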

How the results depend on the processing

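With 1 library per genotype, genotype, sex and preparation cannot be told apart, and depth limits rare transcripts most. No paired analysis was possible because each group has 1 library and the labels give no replicate numbers. Counts of genes past 2-fold are given in the order between libraries, CD4 against CD8 T cells and CD4 against regulatory T cells, and were 227, 99 and 239 in the main setting. They were 498, 172 and 511 with at least 20 summed counts, 54, 31 and 50 with at least 200, and 2693, 690 and 3885 with no filter, where the first split into 2195 higher and 498 lower (81.5% higher), the second into 201 and 489 and the third into 44 and 3841. They were 52, 27 and 37 at 4-fold and 122, 26 and 51 with each cell thinned to 2000 UMIs, where the libraries split into 35 higher and 87 lower. With at least 2 Cd4 UMIs the third count was 128 and the shares of CD4 T cells were 7.25% in control and 2.89% in Flcn iΔEC. Against barcodes past the UMI and mitochondrial limits these shares were 16.4% and 8.76%, and against T cells 42.3% and 33.0%. Thinned to 1000 UMIs, Cd28 was detected in 40.99% and 32.7%, Dapl1 in 17.7% and 19.5% and Lef1 in 31.9% and 31.5% of members, and without thinning in 91.3% and 85.4%, 43.9% and 45.6%, and 89.9% and 88.8%. Of the 50 most variable genes, 9 were shared when ranked by the share of UMIs in the top 5% of cells, against 26. Leaving out the 13 and 6 members with markers of another cell type gave 194, 101 and 236, and leaving out the top cell of each gene gave 208, 95 and 160, with 84 higher and 124 lower between libraries and 62 higher and 98 lower against regulatory T cells. Both were chosen after seeing the data. Altogether 40 values stayed within their limits and 35 did not, and the cause was not tested. The limit of a share was its interval in the main setting, and that of a count a set fold of the main count. Asking for at least 1000 UMIs, or for a T cell receptor constant gene, left the same 1027 and 349 cells, so those values could not move. Other settings change the threshold, filter or denominator itself, so the tally is no measure of robustness.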
